A study of Mus musculus with 28 samples.

Results

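Transcript levels in liver were compared between mice aged 24 and 6 months on 6 of the 28 arrays of the study, which are all the arrays labelled as liver. The 3 arrays of each age came from C57BL/6J mice, an inbred laboratory strain, that were labelled female, housed in groups, fed chow and killed after a night without food at 24 weeks (6 months) or 103 weeks (24 months). No animal carried a transgene or received a drug, per the labels. The sources used here do not say whether the 3 arrays of an age came from separate animals, so every p-value measures the spread between arrays, which may in part be technical. Levels are on the log2 scale, where 1 unit stands for a 2-fold step, and differences are 24 minus 6 months throughout. Where 3 values are given for an age, they stand in the order of replicates 1, 2 and 3.

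The liver makes most plasma proteins, burns and builds fat, forms bile acids and urea, and clears drugs through cytochromes P450, conjugating enzymes and membrane transporters. Many of these genes are set by the pulses of growth hormone, which differ between the sexes, and by the daily clock. Hepatocytes also run a large endoplasmic reticulum, whose chaperones fold the proteins that are secreted.

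The arrays carried the transcripts of liver but not those of the stated sex. Alb, which encodes serum albumin and defines hepatocytes, stood at 14.16, 14.13 and 14.11 at 6 months and 14.09, 14.10 and 14.16 at 24 months. Over 20 genes of secreted hepatocyte proteins the median difference was 0.01. The Y-linked gene Eif2s3y lay between 8.40 and 9.07 in the 6 liver arrays, Kdm5d between 7.44 and 7.98 and Uty between 7.29 and 8.04, which placed them in classes 7 to 9 when all genes were parted by mean level into 10 equal classes, 1 being the lowest. Xist, the RNA made from the silenced X chromosome of females, lay between 4.62 and 5.14, in class 2. In the 6 quadriceps arrays the 3 Y-linked genes lay between 7.30 and 8.74 and Xist between 3.91 and 4.20. These values go against the label female, which all 28 samples carry, in all 6 liver arrays and at both ages, so the mice are called "labelled female" below. The 4 sex-linked genes were chosen for this check after earlier results of these data were known.

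The arrays of the ages differed in ways that touch many genes at once. The interquartile range of the values over all probe sets was 2.75, 2.79 and 2.79 at 6 months and 2.43, 2.49 and 2.66 at 24 months. Pairs of liver arrays correlated between 0.9846 and 0.9958 across the genes tested. Of the 24-month arrays, replicate 3 lay closest to the 6-month arrays. 24-month replicate 2 stood apart in pancreas transcripts, described with the other cell types.

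Only a small share of genes passed the test across all genes. With limma and Benjamini-Hochberg adjustment, 65 of 19944 genes (0.326%) were past an adjusted p of 0.05, 28 higher (0.14%) and 37 lower (0.186%), and each of the 65 had the same adjusted p, 0.0493. With each array centred on its own median, which moved the median of all genes from 0.03 to -0.07, 361 were higher and 1817 lower. All 65 had ages that did not overlap, meaning that the 3 arrays of one age all lay above the 3 of the other, which also held for 18.7% of all genes in the higher and 17.4% in the lower direction. Before adjustment 6535 genes (32.8%) had a p under 0.05, 18.4% of all genes higher and 14.4% lower. The genes that rose did so by 0.45 to 4.25 with a median of 0.62, and those that fell by 0.47 to 1.30 with a median fall of 0.69. Of the 28 that rose, 14 had means below the median of all liver values (6.72) at both ages, as did 6 of the 37 that fell. Differences of at least 1 in either direction, tested or not, were found in 22 genes on the higher side and 14 on the lower.

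**Figure D1:**
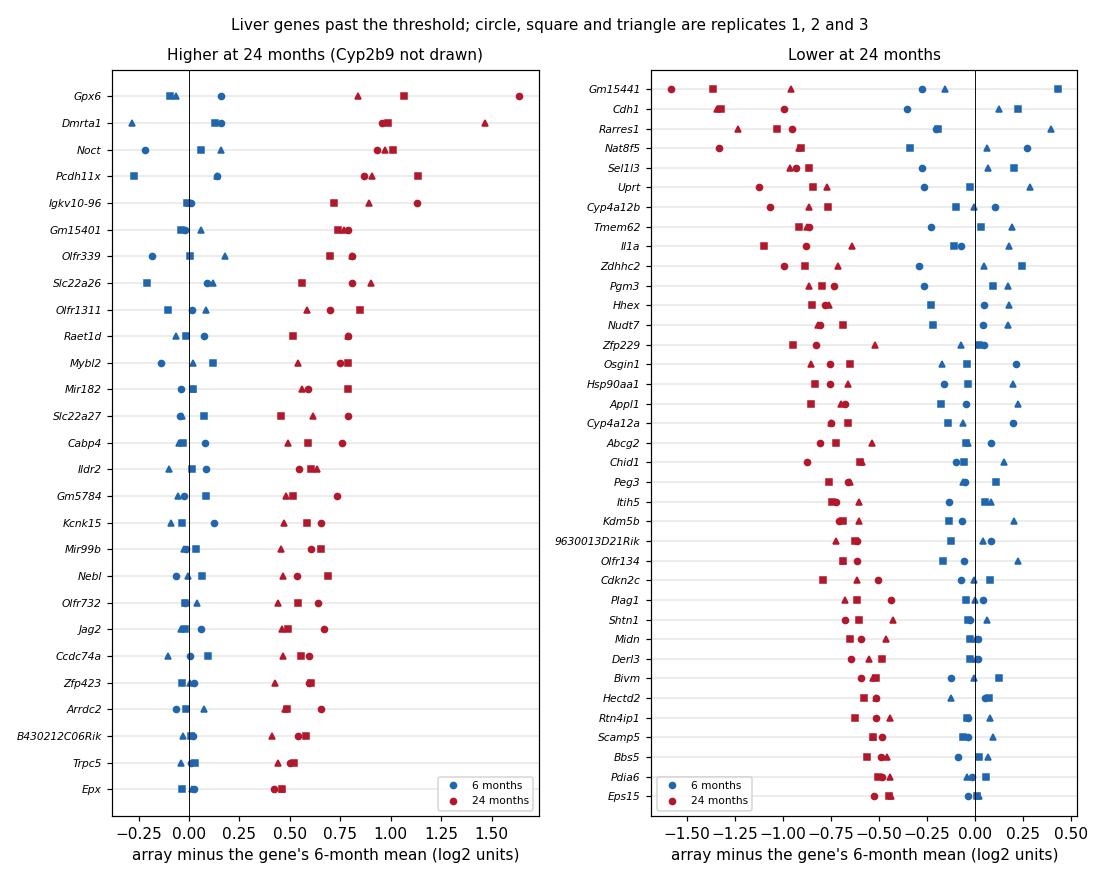
Each point is 1 liver array, placed by its log2 level minus the 6-month mean of that gene, for the genes past the threshold except Cyp2b9 (blue 6 months, red 24 months; circle, square and triangle are replicates 1, 2 and 3). In every gene drawn the 3 red points lie on one side of the 3 blue points, with Gpx6 and Dmrta1 farthest to the right and Gm15441, Cdh1 and Rarres1 farthest to the left.

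Calls at this threshold depended on which arrays entered. Leaving out 24-month replicate 3 gave 5082 genes past the threshold, all 65 among them. Leaving out 6-month replicate 1 gave 12, leaving out 24-month replicate 1 or 24-month replicate 2 gave 1 each, and leaving out 6-month replicate 2 or 6-month replicate 3 gave 0, where 4779 and 4623 genes had an unadjusted p under 0.05. None of the 65 passed in all 6 of these fits. All 65 kept their direction in each, which was fixed in advance because their ages did not overlap.

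The age difference followed the level of expression. Its median was 0.18 in classes 3 and 4 and -0.14 in classes 8 and 9, with 0.06 in class 1 and -0.08 in class 10. Set against the mean of the 6-month arrays, the Spearman correlation of the difference with level across genes was -0.51 in 24-month replicate 1, -0.49 in replicate 2 and -0.25 in replicate 3, which describes genes and not replicates. The classes were set by level in liver, and in quadriceps the medians of these same classes stayed between -0.01 and 0.02. Genes were not ranked by their level in quadriceps, so these values do not show whether the difference there follows level. Cyclic loess, which makes the arrays alike at each level, left class medians in liver between -0.03 and 0.03. A list's median therefore stands beside that of its class for several lists below, and its value after cyclic loess is given wherever the 2 medians differ by 0.03 or more.

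**Figure D2:**
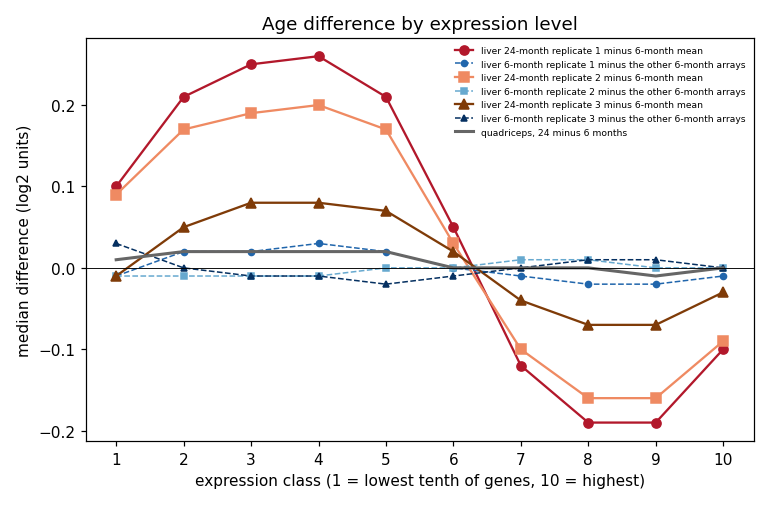
Median log2 difference of the genes in each of 10 expression classes, set by level in liver also for quadriceps (class 1 lowest). Solid coloured lines are the single 24-month liver arrays against the 6-month mean, dashed lines each 6-month array against the other 6-month arrays, and the grey line quadriceps at 24 minus 6 months; the 24-month liver lines run from 0.05 or more in classes 2 to 5 to below 0 in classes 7 to 10, with replicate 3 flattest.

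Genes that differ between the sexes in mouse liver gave the largest rise and several of the falls. Cyp2b9, a cytochrome P450 found mainly in female liver, stood at 6.04, 5.23 and 5.06 at 6 months and at 10.27, 7.93 and 10.88 at 24 months. Every 24-month array lay above every 6-month array, and 24-month replicate 2 was the lowest of its age. Cyp2b9 rose by 4.25 (SE 0.64, adjusted p = 0.0493 by limma). Its 6-month values were dim and the files give no detection call, so no exact fold is given. The organic anion transporter gene Slc22a26 stood at 6.07, 5.77 and 6.10 and then at 6.79, 6.54 and 6.88, a rise of 0.76, and the related Slc22a27 at 4.19, 4.31 and 4.20 and then 5.02, 4.69 and 4.85, a rise of 0.62 at the dim end of the array. Of 18 measured female-biased genes 14 were higher and 3 passed the test, and 7 did not overlap between the ages on the higher side (38.9% against 18.7% of all genes). Their median difference was 0.20, against 0.03 over all genes. The middle of the list lies between classes 5 and 6. In these, 703 of 1995 and 470 of 1994 genes did not overlap on the higher side. Abcd2, a peroxisomal fatty acid transporter, differed by 0.67 (adjusted p = 0.062 by limma) and the transcription factor gene Cux2 by 0.34 (0.063). Several members that mark female liver stayed dim at both ages: Cyp2b13 lay between 4.07 and 4.59, Sult3a1 between 2.39 and 3.0 and A1bg between 3.95 and 4.71.

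Male-biased genes, whose median member lies in class 10, were mostly lower at 24 months in these mice labelled female. Cyp4a12b, a fatty acid hydroxylase, stood at 12.54, 12.34 and 12.43 and then at 11.37, 11.67 and 11.57. It fell by 0.90 (SE 0.10), and Cyp4a12a, whose sequence is nearly the same so that the pair may share signal, fell by 0.72. Nudt7, which splits coenzyme A in peroxisomes, stood at 11.31, 11.05 and 11.44 and then at 10.46, 10.58 and 10.45, a fall of 0.77. Nat8f5, of a family of acetyltransferases, fell by 1.05 from 9.16, 8.55 and 8.95 to 7.55, 7.98 and 7.97. In each of these 4 genes the lowest 6-month array lay above the highest 24-month array.

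Of 21 measured male-biased genes 19 were lower, 4 passed the test and 14 did not overlap, all 14 on the lower side (66.7% against 17.4% of all genes). Their median was -0.36, and -0.31 with cyclic loess. In class 10, where their middle member lies, 627 of 1995 genes did not overlap on the lower side. Cyp7b1, which hydroxylates oxysterols and steroids on the way to bile acids, stood at 11.60, 11.52 and 12.07 and then at 10.48, 11.02 and 10.93 (difference -0.92, adjusted p = 0.0541 by limma). Mup21, a major urinary protein, was at 9.63, 9.50 and 9.70 and then spread over 7.91, 8.58 and 9.36. Hsd3b5, a steroid dehydrogenase, overlapped, at 9.43, 8.14 and 8.70 against 7.13, 8.96 and 8.90. The complement gene C6, also male-biased, differed by -0.53 and the transporter gene Slco1a1 by -0.64.

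Genes of growth hormone signalling, the pathway through which the pituitary sets sex-biased expression, showed no call. Their median was 0.01 (0.06 with cyclic loess) over 20 genes, of which 11 were higher and 9 lower. Cish, a feedback inhibitor induced by the hormone, stood at 8.31, 8.03 and 8.11 and then at 7.78, 7.67 and 7.01, without overlap (difference -0.66, adjusted p = 0.0671 by limma). Stat5b, the transcription factor activated by the receptor, differed by -0.22 and the inhibitor gene Socs1 by 0.34. With cyclic loess these values were -0.56 for Cish, -0.08 for Stat5b and 0.32 for Socs1.

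Drug-handling families held few calls beyond the sex-biased members. Of 69 cytochromes P450 of families 1 to 4, 44 were higher and the median was 0.07, with Cyp2b9 past the test on the higher side and the Cyp4a12 pair on the lower. The sign of that median turned when dim genes were left out or arrays were centred on their median (-0.02 in each). Cyp2b10, induced by drugs of the phenobarbital type, stood at 5.81, 5.71 and 5.79 and then at 6.78, 6.29 and 6.43 (difference 0.73, adjusted p = 0.0539 by limma). Cyp2c38 was at 10.26, 9.76 and 9.79 and then at 10.57, 10.70 and 11.07 (0.84, 0.0541). Among the receptors that switch such genes on, Ahr differed by 0.58 and Nr1i3 by 0.31, each without overlap.

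Conjugating enzymes split by family. Of 10 genes listed as UDP-glucuronosyltransferases, which attach sugars such as glucuronic acid, 8 were lower, with a median of -0.26. That median was -0.49, -0.25 and -0.01 in 24-month replicates 1, 2 and 3 taken singly, -0.11 without replicate 1 and -0.17 with cyclic loess. Ugt2b37 was at 7.34, 7.51 and 7.98 and then at 6.14, 6.79 and 6.38 (difference -1.17, adjusted p = 0.0522 by limma). Ugt2b38, also male-biased, differed by -0.76. Of 22 glutathione S-transferases 16 were higher, the median being 0.12 (0.16 with cyclic loess), with Gstt3 at 9.35, 8.64 and 8.95 and then 9.96, 9.50 and 9.63 (0.72) and Gstt1 differing by 0.38. The 16 sulfotransferases had a median of 0.10 (0.04 with cyclic loess) and the 16 carboxylesterases one of 0.04. Ces1g, a carboxylesterase that acts on stored lipid, had a mean of 10.40 ± 0.53 (SD, 3 arrays) at 6 months and 11.37 ± 0.03 at 24 months, without overlap (0.97, adjusted p = 0.0541 by limma). No enzyme of these 4 families passed the test.

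Transporters were mixed. Of 38 Slc22 and Slco genes 27 were higher, and Slc22a26 and Slc22a27 were the members past the test. Abcg2, an efflux pump for drugs and urate in the bile canaliculus, stood at 9.25, 9.12 and 9.13 and then at 8.36, 8.44 and 8.63. It fell by 0.69 (SE 0.09), and its lowest 6-month array lay above its highest 24-month array.

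Among clock genes 1 passed the test. Of the 21 measured, 3 did not overlap on the higher side (14.3% against 18.7% of all genes) and 2 on the lower (9.52% against 17.4%). In class 8, where their middle member lies, 89 of 1995 genes did not overlap on the higher side and 803 on the lower. The clock runs on the activators CLOCK and BMAL1 (encoded by Arntl), which switch on the Per and Cry repressors through E-boxes, and on output genes such as Noct, a deadenylase-like phosphatase with a strong daily rhythm in liver. Noct stood at 7.76, 8.04 and 8.14 at 6 months and at 8.91, 8.99 and 8.95 at 24 months. It rose by 0.97 (SE 0.11, adjusted p = 0.0493 by limma), and its 24-month arrays lay close together, above all 6-month arrays. Arntl stood at 8.06, 7.95 and 7.92 and then at 7.70, 7.26 and 6.94, and Clock at 9.70, 9.72 and 9.71 and then 9.43, 9.40 and 9.47. Per1 was at 8.15, 8.58 and 8.44 and then at 8.75, 8.89 and 9.35, and the clock-controlled Usp2 at 7.53, 7.46 and 7.66 and then 7.84, 8.14 and 8.68. In Arntl, Per1 and Usp2 the 24-month replicates were ordered alike by distance from the 6-month values, replicate 3 farthest and replicate 1 nearest, and neither these genes nor Clock overlapped between the ages.

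Noct was the member past the test among these genes, of which 15 were higher. The list's median was 0.16, 0.30 with cyclic loess, and -0.03, 0.20 and 0.36 in the 3 old arrays taken singly; without 24-month replicate 3 it was 0.04. The differences were -0.68 for Arntl, -0.28 for Clock, 0.61 for Per1, 0.67 for Usp2 and 0.37 for Per3, with adjusted p between 0.0583 and 0.0987 by limma. In quadriceps Arntl differed by -0.35, Clock by -0.26, Per1 by 0.44 and Noct by -0.05. The sources used here give no hour of death for the animals, and its part in these values was not tested.

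The E-box CACGTG, searched on both strands of the 250 bases before each RefSeq transcript start (assembly GRCm38.p6), was in the windows of 5 of 18 clock genes with a window (27.8%), against 8.11% of the tested genes with one and 6.02% of all 32851 windows. The share describes the clock genes chosen for the list and not those that differed with age. Of the 2 windows of Per1 only the window shown carried the E-box. Per1 was picked because the gene lies at the centre of the loop. The E-box is in capitals at bases 161 to 166 before the start.
Per1 (chr11:69098699-69098948, + strand): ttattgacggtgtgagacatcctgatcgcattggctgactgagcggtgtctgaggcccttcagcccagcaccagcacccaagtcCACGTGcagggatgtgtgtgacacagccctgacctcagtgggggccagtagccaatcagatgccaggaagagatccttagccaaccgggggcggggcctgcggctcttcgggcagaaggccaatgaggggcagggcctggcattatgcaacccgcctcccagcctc

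Genes that fold proteins in the endoplasmic reticulum were lower at 24 months. Derl3, which helps to move misfolded proteins out of the reticulum, stood at 8.02, 7.98 and 8.01 and then at 7.36, 7.52 and 7.45, and Pdia6, a disulphide isomerase, at 9.39, 9.46 and 9.36 and then 8.92, 8.90 and 8.96. Derl3 fell by 0.56 (SE 0.08) and Pdia6 by 0.48 (SE 0.07), and in both the gap between the ages was wider than the range within either. The chaperone gene Hspa5, whose product BiP senses unfolded protein, was at 11.91, 12.04 and 12.09 and then at 11.67, 11.54 and 11.52 (difference -0.44, adjusted p = 0.0541 by limma). Hyou1 differed by -0.46, Manf by -0.51 and Pdia4 by -0.36, each without overlap. Of 32 genes of the reticulum's chaperones and stress response, 28 were lower, 2 passed the test and 21 did not overlap on the lower side (65.6% against 17.4% of all genes). Their median was -0.30, and -0.22 with cyclic loess, and in the single old arrays it was -0.28, -0.33 and -0.21. In quadriceps the median of the same genes was 0.09. Their middle member lies in class 9, where 820 of 1994 genes did not overlap on the lower side in liver.

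Many of these genes share a response element. The endoplasmic reticulum stress element, searched as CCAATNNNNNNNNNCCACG on both strands of the same windows, was found for 10 of 28 listed genes with a window (35.7%), against 0.128% of tested genes with a window and 0.113% of all windows. It was in the windows of Calr, Canx, Creld2, Derl3, Dnajc3, Ero1b, Hsp90b1, Hspa5, Pdia6 and Syvn1. The list was drawn up from genes known to respond to such stress, so the share describes the list. The windows of the members past the test, Derl3 and Pdia6, and of Hspa5 follow, with the element in capitals. In Derl3 it reads on the opposite strand and lies 138 to 156 bases before the start, in Pdia6 80 to 98 bases and in Hspa5 47 to 65 bases before it.
Derl3 (chr10:75893148-75893397, + strand): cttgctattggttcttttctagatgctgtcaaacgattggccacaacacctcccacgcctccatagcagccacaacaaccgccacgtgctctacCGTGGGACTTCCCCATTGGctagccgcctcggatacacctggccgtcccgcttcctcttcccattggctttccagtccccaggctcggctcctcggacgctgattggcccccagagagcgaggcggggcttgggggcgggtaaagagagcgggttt
Pdia6 (chr12:17266339-17266588, + strand): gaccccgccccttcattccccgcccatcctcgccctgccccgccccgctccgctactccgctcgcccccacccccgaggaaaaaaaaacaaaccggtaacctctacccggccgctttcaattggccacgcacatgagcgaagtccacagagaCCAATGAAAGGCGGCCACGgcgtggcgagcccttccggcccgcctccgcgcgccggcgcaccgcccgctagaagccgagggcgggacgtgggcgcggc
Hspa5 (chr2:34771840-34772089, + strand): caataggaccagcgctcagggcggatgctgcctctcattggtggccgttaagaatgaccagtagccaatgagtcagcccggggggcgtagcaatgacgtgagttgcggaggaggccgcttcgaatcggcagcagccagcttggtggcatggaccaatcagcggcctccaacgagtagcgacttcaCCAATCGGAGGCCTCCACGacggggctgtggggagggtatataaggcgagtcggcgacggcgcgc

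Heat shock chaperones of the cytosol and mitochondria were lower too. Hsp90aa1, the inducible form of the HSP90 chaperone, stood at 10.59, 10.72 and 10.95 and then between 9.92 and 10.09 in all 3 old arrays, and it fell by 0.75 (SE 0.11). Hsph1 was at 9.02, 8.99 and 9.52 and then at 8.25, 8.50 and 8.24 (difference -0.85), Chordc1 at 8.53, 8.60 and 8.77 and then 7.46, 7.81 and 8.20 (-0.81), and Hspa4l at 7.64, 7.64 and 8.15 and then 7.21, 7.19 and 7.19 (-0.61). The mitochondrial chaperonin pair Hspd1 and Hspe1 differed by -0.45 and -0.69. In each of these named genes 6-month replicate 3 was the highest array. The mean over the list was 9.42, 9.46 and 9.75 in the 6-month arrays. Of 24 measured members 22 were lower, 1 passed the test and 19 did not overlap on the lower side (79.2% against 17.4% of all genes). The median was -0.40, and -0.26 with cyclic loess. It was -0.31 at its weakest when 1 array was left out, that array being 6-month replicate 3. In quadriceps the median was -0.15, with Hsp90aa1 at -0.51. The middle of the list lies between classes 9 and 10. In these, 820 of 1994 and 627 of 1995 genes did not overlap on the lower side in liver.

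The heat shock element, searched as GAANNTTC, was found for 6 of 20 listed genes with a window (30%), Dnaja1, Fkbp4, Hspa1a, Hspb1, Hspd1 and Hspe1, against 6.86% of tested genes with a window and 6.69% of all windows. This share describes the genes chosen for the list and not those that differed with age. Of the 2 windows of Hspd1 only the window shown carried the element. Hspd1 was picked because it faces Hspe1 on the chromosome. The element is in capitals at bases 132 to 139 before the start.
Hspd1 (chr1:55087933-55088182, - strand): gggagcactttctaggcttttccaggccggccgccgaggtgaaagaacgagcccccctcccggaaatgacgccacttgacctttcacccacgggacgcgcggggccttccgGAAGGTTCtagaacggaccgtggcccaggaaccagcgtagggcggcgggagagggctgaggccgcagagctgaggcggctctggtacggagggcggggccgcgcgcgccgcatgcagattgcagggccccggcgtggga

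Genes of protein turnover and of the mitochondrial ribosome differed by less per gene and in most members. Of 48 proteasome genes 43 were lower and 30 did not overlap on the lower side (62.5% against 17.4% of all genes), none past the test, with a median of -0.18 that was -0.07 with cyclic loess. Psmg2, an assembly chaperone of the proteasome, was at 8.45, 8.43 and 8.62 and then at 7.79, 7.97 and 8.05 (difference -0.56). Of 74 mitochondrial ribosome genes 68 were lower and 39 did not overlap on the lower side (52.7%), none past the test, with a median of -0.18, -0.09 with cyclic loess. Mrpl51 was at 9.66, 9.65 and 9.76 and then at 9.18, 9.34 and 9.42 (difference -0.38). The middle members of both lists lie in class 9, where the median of all genes was -0.14. In that class 820 of 1994 genes did not overlap on the lower side. The 59 cytosolic ribosome genes had a median of -0.05, and 0.02 with cyclic loess.

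**Figure D3:**
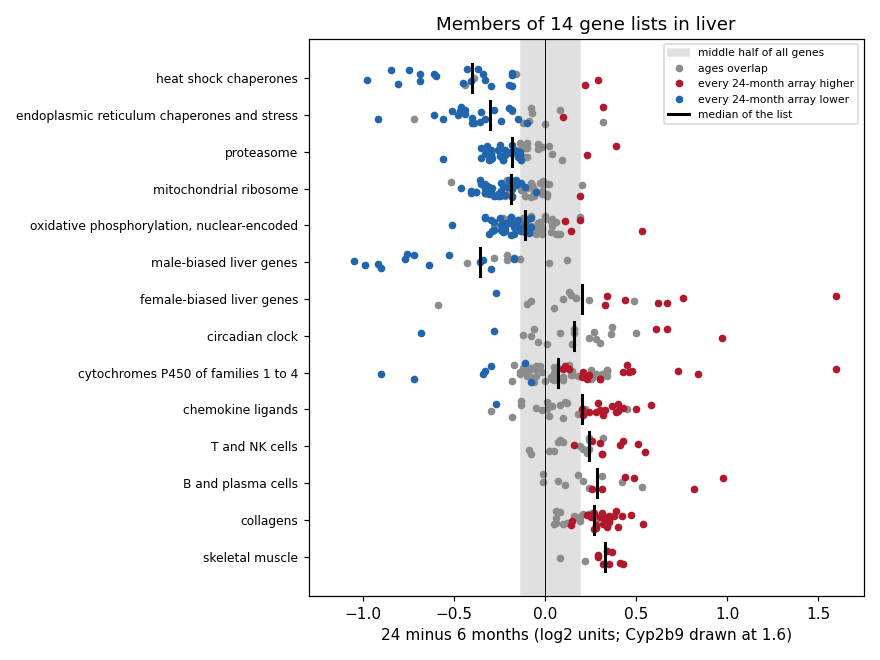
Each point is 1 gene of the list named at the left, placed by its difference at 24 minus 6 months in log2 units; red and blue points are genes whose ages did not overlap, grey points overlapped, black bars are list medians and the grey band spans the middle of all genes from the lower to the upper quartile. Heat shock and endoplasmic reticulum genes lie mostly left of the band, all 44 collagen genes lie right of 0, and Cyp2b9 is drawn at the edge.

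Energy metabolism showed small differences in one direction. Of 79 nuclear-encoded genes of oxidative phosphorylation 65 were lower, with a median of -0.11 (-0.05 with cyclic loess), and Ndufa1, a subunit of complex I, stood at 8.30, 8.14 and 8.27 and then at 7.56, 7.67 and 7.95. Cox6a2, the muscle form of a cytochrome oxidase subunit, went against the list at 6.76, 6.77 and 6.74 and then 7.56, 7.25 and 7.06 (difference 0.53). Of 21 genes of the tricarboxylic acid cycle 20 were lower (median -0.16, and -0.05 with cyclic loess), Pdhb of pyruvate dehydrogenase among them at -0.52. Of 29 genes of fatty acid oxidation and ketone synthesis 27 were lower (median -0.11, and -0.06 with cyclic loess). Ehhadh, a peroxisomal oxidation enzyme, was at 13.12, 13.32 and 13.22 and then at 12.70, 12.68 and 12.88 (-0.47, adjusted p = 0.0541 by limma). In amino acid breakdown and the urea cycle 27 of 36 were lower (median -0.08, and -0.03 with cyclic loess), and Aass, the first enzyme of lysine breakdown, was at 11.97, 11.97 and 12.22 and then 11.62, 11.62 and 11.64. No gene of these 4 lists passed the test, and their middle members lie in class 10, where the median of all genes was -0.08.

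Lipid genes differed one by one and not as lists. Cidea, a lipid droplet protein scarce in lean liver, stood at 5.91, 5.35 and 5.64 and then at 7.04, 8.06 and 6.84 (difference 1.68, adjusted p = 0.0539 by limma), from a dim level at 6 months. Plin4, a droplet coat protein, was at 8.67, 8.53 and 8.47 and then at 8.93, 8.91 and 9.13, whereas Cidec was at 9.53, 10.15 and 10.56 and then 9.74, 9.61 and 9.40, with overlap. Of the synthesis genes, Lpin1, a phosphatidate phosphatase, was at 8.71, 8.97 and 9.47 and then at 9.68, 9.87 and 10.14 (0.85). Pnpla3, a lipase-like gene driven by feeding, differed by 0.57, the regulator Srebf1 by 0.43, and Dgat1, which adds the last acyl chain of triglyceride, by -0.40. The list medians were -0.02 for fatty acid and triglyceride synthesis (21 genes) and -0.08 for lipid droplet proteins (15 genes), and both turned sign with cyclic loess, to 0.07 and 0.04. No gene of either list passed the test.

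Sterol and bile acid genes also had no call. Of 20 genes of cholesterol synthesis and uptake 14 were higher (median 0.12, and 0.23 with cyclic loess), with Fdft1, squalene synthase, at 10.25, 10.14 and 9.98 and then 10.29, 10.66 and 10.73. In 24-month replicate 1 this median was -0.01. Of 30 bile acid genes 16 were lower (median -0.02, and 0.02 with cyclic loess). Akr1d1, a reductase of bile acid synthesis, was at 10.07, 9.60 and 9.55 and then at 10.26, 10.27 and 10.43 (difference 0.58). Glucose and glycogen genes had a median of 0.02 over 20 genes (0.10 with cyclic loess). Among 16 iron genes (median 0.01) Hamp2, one of the hepcidin genes, differed by 0.45 and the transferrin receptor gene Tfrc by -0.41, each without overlap.

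Genes of position within the lobule, which separates hepatocytes near the portal vein from those near the central vein, did not differ as lists. The median was 0.01 over 19 pericentral genes (0.04 with cyclic loess) and -0.07 over 17 periportal genes (-0.02). Cdh1, which encodes the adhesion protein E-cadherin of periportal hepatocytes and bile duct cells, stood at 8.29, 8.87 and 8.77 and then at 7.65, 7.32 and 7.30. It fell by 1.22 (SE 0.16, adjusted p = 0.0493 by limma), and in quadriceps it differed by 0.02. Of the pericentral genes, Lect2 differed by 0.41, Cyp2c37 by 0.46 and the Wnt target Axin2 by -0.26. Hhex, a homeobox gene needed for liver development, fell by 0.80, from 9.86, 9.58 and 9.99 to 9.03, 8.96 and 9.05. The 10 cholangiocyte markers had a median of -0.01 (-0.11 with cyclic loess), with Krt19 at 5.85, 5.86 and 5.56 and then 6.03, 5.82 and 6.05. None of the 10 was without overlap, against 36.1% of all genes in either direction. Among 25 nuclear receptors and hepatocyte transcription factors 17 were lower and none passed, with a median of -0.04 that was 0.06 with cyclic loess.

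Among genes of inflammation, the acute phase gave the widest spread within an age. Saa2, a serum amyloid A gene induced in liver by inflammation, stood at 6.99, 11.67 and 11.68 at 6 months and at 7.02, 7.36 and 7.06 at 24 months, and Saa1, a near copy that may share signal, at 4.94, 8.95 and 9.08 and then 5.06, 5.53 and 4.95. 6-month replicates 2 and 3 were high and the other 4 arrays low, so the ages overlapped (differences -2.97 and -2.48, adjusted p 0.0977 and 0.108 by limma). Serpina3n, also of the acute phase, was at 12.75, 13.07 and 13.20 and then 12.90, 12.74 and 12.79. The list of 23 acute phase genes had a median of -0.03, and none was without overlap, against 36.1% of all genes in either direction. Of 30 complement and coagulation genes 15 were lower, none passed the test and the median was 0.00 (0.04 with cyclic loess). On the lower side 8 did not overlap (26.7% against 17.4% of all genes). The list's middle member lies in class 10, where 627 of 1995 genes did not overlap on that side. Among the members of smallest p, C6, C8a, C8b and C9 differed by -0.53, -0.32, -0.40 and -0.31, with adjusted p between 0.0541 and 0.0611 by limma. C6 was at 11.46, 11.57 and 11.55 and then at 10.80, 11.08 and 11.10.

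Of the interleukin-1 genes 1 passed the test. Il1a, which encodes the alarm cytokine interleukin-1 alpha, stood at 7.60, 7.56 and 7.85 and then at 6.79, 6.57 and 7.03, and it fell by 0.87 (SE 0.13). Il1b was at 7.17, 6.62 and 6.66 and then at 6.35, 6.61 and 6.55. Pycard, the inflammasome adaptor, was at 5.77, 5.77 and 5.89 and then 6.34, 6.35 and 6.17 (difference 0.48). The 16 genes had a median of 0.04, which was -0.10 with cyclic loess. Of 34 chemokine ligands 27 were higher and 15 did not overlap on the higher side (44.1% against 18.7% of all genes), none past the test. Their median was 0.20, and 0.11 with cyclic loess, the median of all genes in class 5, where their middle member lies, being 0.15. In that class 703 of 1995 genes did not overlap on the higher side. Ccl5, which draws T cells, stood at 7.23, 7.11 and 7.03 and then at 8.05, 7.60 and 7.46, and Ccl2, which draws monocytes, at 6.45, 6.31 and 6.29 and then 6.87, 6.95 and 6.73. The 23 interferon-stimulated genes had a median of -0.02 (0.03 with cyclic loess).

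Markers of immune cells were higher by small amounts and from low levels. In bulk tissue, more cells of a type and more RNA per cell cannot be told apart. Of 16 B and plasma cell markers 14 were higher, with a median of 0.28 (0.12 with cyclic loess), and Jchain, the joining chain of secreted antibodies, was at 5.42, 5.98 and 5.87 and then at 7.13, 6.25 and 6.83. Igha differed by 0.82 and Ighm by 0.49, and the antibody light chain segment Igkv10-96 passed the test: it stood between 4.99 and 5.01 in all young arrays and then at 6.13, 5.72 and 5.89, a rise of 0.91. Such segments are of near sequence and can share signal. Of 23 T and NK cell markers 21 were higher, with a median of 0.24 (0.08 with cyclic loess) and Cd5 at 5.83, 5.58 and 5.54 and then 6.28, 6.37 and 5.96. Of 17 neutrophil markers 16 were higher (median 0.25, and 0.13 with cyclic loess). Epx, the peroxidase of eosinophils, rose by 0.45 from 5.06, 5.0 and 5.05 to 5.46, 5.50 and 5.50.

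The old arrays did not contribute alike to these markers. The mean level of the B and plasma cell markers was 6.05, 6.14 and 5.94 and then 6.59, 6.30 and 6.24, and that of the T and NK cell markers 5.74, 5.71 and 5.65 and then 6.07, 5.88 and 5.81, with 24-month replicate 1 highest in both. All 9 MHC class II genes, which present antigen, were higher (median 0.24). Singly the old arrays gave 0.45, 0.08 and 0.10, and without 24-month replicate 1 the median was 0.08. Macrophage markers had a median of 0.12 over 22 genes, 0.18 with cyclic loess, and -0.06 in 24-month replicate 3. Marco, a scavenger receptor of Kupffer cells, stood at 5.80, 5.89 and 5.95 and then at 6.91, 6.70 and 5.82, replicate 3 lying among the young values. No member of these marker lists passed the test, Igkv10-96 and Epx lying outside them. The middle members of the B and T cell lists lie in class 4 and those of the neutrophil list in class 3, where the median of all genes was 0.18.

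Collagen genes had higher values in the old arrays, and sinusoidal markers did not. All 44 collagen genes had a higher mean at 24 months and 25 did not overlap between the ages (56.8% against 18.7% of all genes), with none past the test and a median of 0.27, 0.20 with cyclic loess. Col1a1, the main chain of fibrillar collagen, stood at 7.11, 7.13 and 7.13 and then at 7.60, 7.62 and 7.32 (difference 0.39, adjusted p = 0.0583 by limma), and Col4a5, of basement membrane, at 6.09, 6.12 and 6.07 and then 6.81, 6.64 and 6.25. Col2a1, the collagen of cartilage, differed by 0.40, as much as Col1a1. The single old arrays gave medians of 0.37, 0.31 and 0.11, replicate 3 least. The middle collagen gene lies in class 6, where the median of all genes was 0.02. In that class 470 of 1994 genes did not overlap on the higher side. Markers of stellate cells and fibroblasts had a median of 0.07 over 22 genes. Of 20 sinusoidal endothelium markers 17 were lower (median -0.09), but the median was 0.04 both with cyclic loess and in 24-month replicate 3.

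Transcripts of other organs were checked in each array. In 24-month replicate 2 the mean of 20 exocrine pancreas markers was 8.73, against 5.81 to 5.95 in the 6-month arrays and 6.16 and 5.89 in the other 24-month arrays. Ctrb1, which encodes a chymotrypsinogen, stood at 5.81, 6.37 and 5.84 and then at 6.74, 11.15 and 5.68, and Cpa1, a carboxypeptidase, at 6.19, 6.45 and 6.16 and then 6.68, 10.86 and 6.41. The median difference of these markers was 1.0 with that array and 0.18 without it, and none of the 20 passed the test. The islet genes Ins2 and Gcg did not stand apart in that array, Ins2 being at 5.83, 5.79 and 5.32 and then 6.12, 6.11 and 5.83. Without this array Cyp2b9 differed by 5.13 (adjusted p = 0.00169 by limma) and was the gene past the test, and Cyp4a12b differed by -0.97 (0.113). The list medians without it were 0.25 for female-biased and -0.42 for male-biased genes, -0.27 for the endoplasmic reticulum, -0.42 for heat shock chaperones, 0.17 for the clock and 0.24 for collagens. Cidea, which is abundant in brown fat, differed by 1.31 without it.

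Skeletal muscle markers were higher in all 10 genes, 8 without overlap (80% against 18.7% of all genes), with a median of 0.33 (0.21 with cyclic loess), although they lay at low levels between 4.40 and 7.43. Tnnt3, a troponin, stood at 6.64, 6.50 and 6.59 and then at 7.22, 7.03 and 6.76. Myh4, a myosin of fast muscle fibres, was at 5.37, 5.17 and 5.16 and then at 5.37, 5.30 and 5.27, with overlap. The middle member lies in class 3, where the median of all genes was 0.18. In that class 621 of 1995 genes did not overlap on the higher side. Adipocyte markers had a median of 0.24 over 11 genes (0.10 with cyclic loess), and Adipoq, which defines adipocytes, lay between 4.20 and 4.69 in all arrays. The part of these cell types in the results above was not tested.

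**Figure D4:**
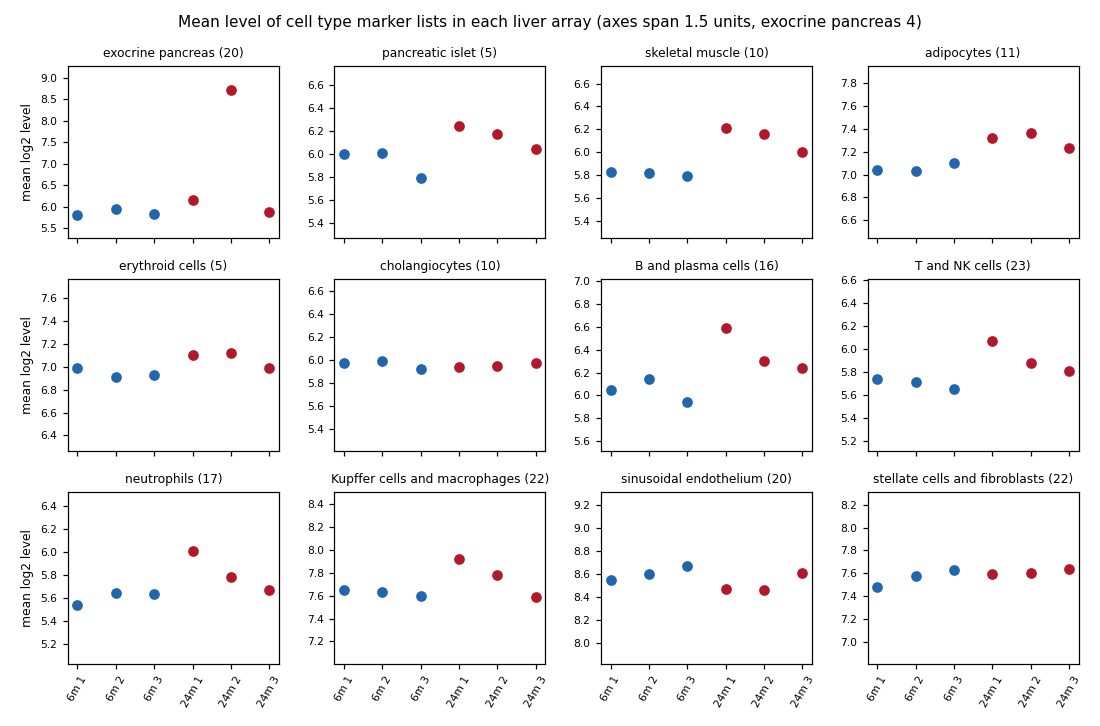
Mean log2 level of each marker list in each of the 6 liver arrays (blue 6 months, red 24 months, replicates 1 to 3; number of genes in brackets). 24-month replicate 2 stands at 8.73 for exocrine pancreas, and 24-month replicate 1 is the highest array for B and plasma cells, T and NK cells, neutrophils and macrophages.

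Further genes that fell included a long noncoding RNA and enzymes of several pathways. Gm15441, a noncoding gene that lies antisense to Txnip, stood at 10.40, 11.11 and 10.52 and then at 9.09, 9.31 and 9.72 and fell by 1.30 (SE 0.20). Rarres1, a retinoid-responsive gene, fell by 1.07, from 8.56, 8.57 and 9.16 to 7.81, 7.73 and 7.53. Pgm3, of the hexosamine pathway that supplies sugars for glycoproteins, fell by 0.80, and Osgin1, an oxidative stress response gene, by 0.75 from 11.19, 10.93 and 10.80 to 10.22, 10.32 and 10.12. Uprt fell by 0.91, Tmem62 by 0.89 and Zdhhc2, which attaches palmitate to proteins, by 0.86. Appl1, an adaptor in adiponectin signalling, fell by 0.74 and Kdm5b, a histone H3 demethylase, by 0.67. Cdkn2c, which encodes the cell cycle inhibitor p18, stood at 7.17, 7.32 and 7.24 and then at 6.74, 6.45 and 6.63 and fell by 0.64. It was the member past the test among 17 p53 target and senescence genes, whose median was 0.09 and 0.01 with cyclic loess.

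Peg3, an imprinted gene expressed from the paternal copy, stood at 7.56, 7.72 and 7.55 and then at 6.95, 6.85 and 6.96 in liver, a fall of 0.69 (SE 0.08), and differed by -0.87 in quadriceps, where its adjusted p was 0.657 by limma. Plag1, a growth-related zinc finger gene, fell by 0.58 from below the middle of the array. The other genes past the test on the lower side were Sel1l3, Zfp229, Itih5, Chid1, Olfr134, 9630013D21Rik, Shtn1, Midn, Bivm, Hectd2, Rtn4ip1, Scamp5, Bbs5 and Eps15, with falls between 0.47 and 0.92. Of the 37 genes that fell, 23 had a lower mean at 24 months in quadriceps, where the median difference of all genes was 0.01. In quadriceps 8 of the 37 had an unadjusted p under 0.05 by limma, in either direction, against 7.05% of all genes.

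The other rises were of dim or scattered genes. Gpx6, a glutathione peroxidase, stood at 6.31, 6.06 and 6.09 and then at 7.79, 7.22 and 6.99 and rose by 1.18 (SE 0.18). It was the member past the test among 26 antioxidant genes, whose median was -0.03 (0.00 with cyclic loess). Dmrta1, of a family of transcription factors, rose by 1.14 from 6.86, 6.83 and 6.42 to 7.66, 7.69 and 8.17. Raet1d, a stress ligand of the NKG2D receptor of NK cells, rose by 0.70 from 9.11, 9.02 and 8.97 to 9.82, 9.55 and 9.82, and Gm15401 by 0.77 from 8.60, 8.58 and 8.68 to 9.41, 9.36 and 9.39. Mybl2, a transcription factor of dividing cells, rose by 0.69 from 5.72, 5.98 and 5.88. Of 26 other cell division genes 21 were higher, with a median of 0.15 that was 0.02 with cyclic loess. The rest were Jag2, a Notch ligand, Pcdh11x, Ildr2, Cabp4, Kcnk15, Nebl, Zfp423, Trpc5, Arrdc2, Ccdc74a, Gm5784, B430212C06Rik and the olfactory receptor genes Olfr339, Olfr1311 and Olfr732, with rises between 0.49 and 0.97. Of the 28 genes that rose, 14 had a higher mean at 24 months in quadriceps. In quadriceps 4 of the 28 had an unadjusted p under 0.05 by limma, in either direction, against 7.05% of all genes.

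Among the rises were 2 microRNA genes. Mir99b stood at 7.03, 7.08 and 7.02 and then at 7.65, 7.70 and 7.50 and rose by 0.57 (SE 0.08), and Mir182 at 3.99, 4.05 and 4.05 and then at 4.62, 4.82 and 4.59, a rise of 0.65 from the dim end. The probe sets are assigned to the gene, so neither arm of the hairpin can be read from them. The mature RNAs that RefSeq lists for the pair are shown with the seed, bases 2 to 8, in capitals, and no seed is shared between them.
mmu-miR-99b-5p: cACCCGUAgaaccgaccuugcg
mmu-miR-99b-3p: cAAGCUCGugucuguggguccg
mmu-miR-182-5p: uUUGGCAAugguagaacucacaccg
mmu-miR-182-3p: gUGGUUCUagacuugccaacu

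**Figure D5:**
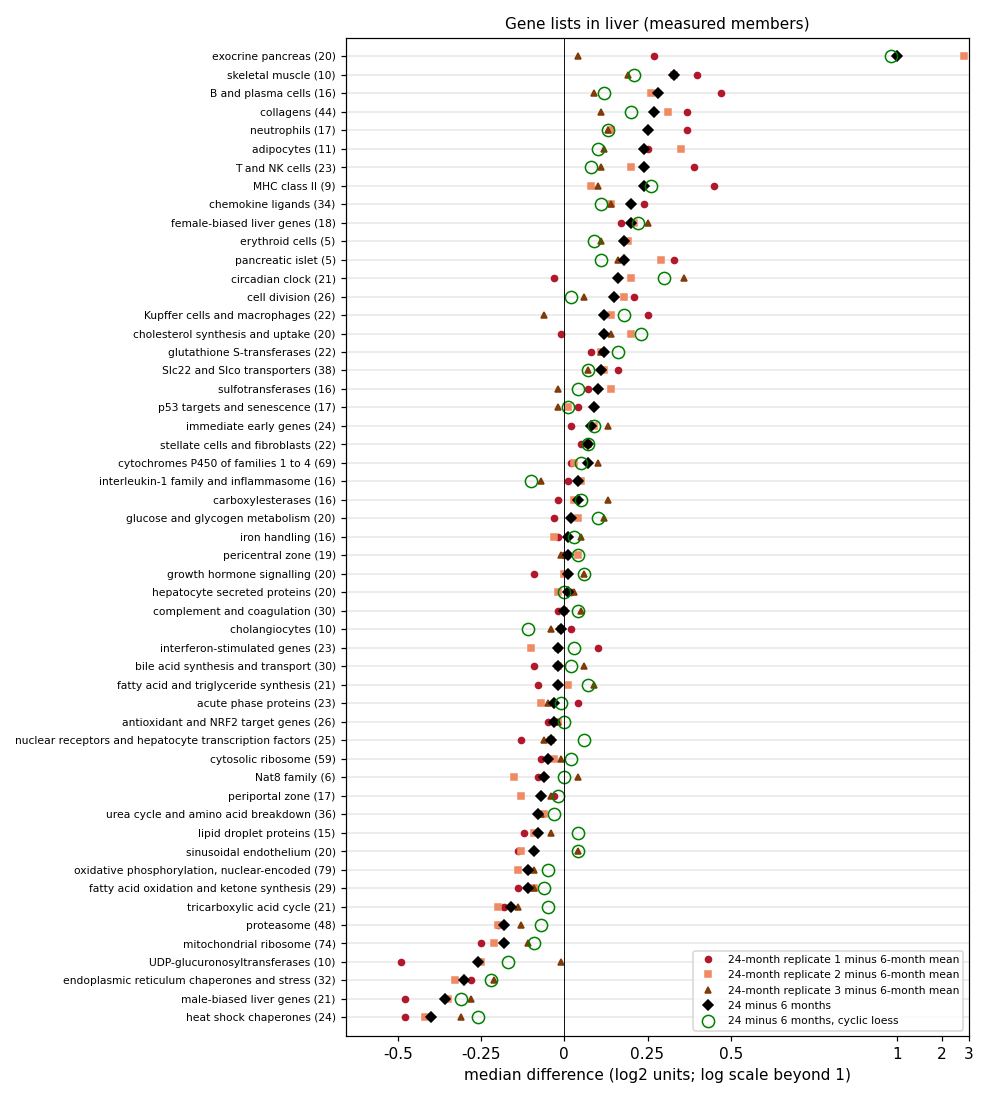
Median log2 difference of each gene list (measured members in brackets): black diamonds 24 minus 6 months, green circles after cyclic loess, and small symbols the single 24-month arrays against the 6-month mean. Heat shock chaperones lie lowest at -0.40, and exocrine pancreas lies highest at 1.0, with 24-month replicate 2 at the right edge.

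The age difference in liver was set against that in quadriceps, the thigh muscle measured on the same array type. In the model of both tissues 3 of 19944 genes (0.015%) differed in their age effect at an adjusted p under 0.05, Sel1l3, Il1a and Mettl21c, and 3950 (19.8%) at an unadjusted p under 0.05. With a block of age and number none passed, and with quantile normalization 3 passed, all on the higher side, so that Il1a and Sel1l3 were not among them. Leaving out 1 liver array gave 2 to 1465, the most without 24-month replicate 3, and 48 without 6-month replicate 1. In quadriceps itself 1 gene passed (0.00501%), and 7.05% had an unadjusted p under 0.05. Sel1l3 stood at 9.14, 9.62 and 9.48 and then at 8.48, 8.55 and 8.45 in liver, a fall of 0.92, and differed by 0.16 in quadriceps. Il1a differed by 0.28 in quadriceps. Mettl21c, a methyltransferase gene of muscle, differed by 0.07 in liver, at levels of 4.29 to 4.57, and by -0.94 in quadriceps. The next genes by p were Cdh1 (-1.24, liver minus quadriceps), Cfap36 (-0.76) and Hspa5 (-0.64) on the lower side and Noct (1.02), 1700001O22Rik (1.13), Vldlr (0.64) and Gm15401 (0.82) on the higher, with adjusted p between 0.0555 and 0.0619 by limma. For Hspa5 the quadriceps difference was 0.20 and for Cyp2b9 it was -0.21, the latter with an adjusted p of 0.0688 for the tissue difference by limma.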

How the data were processed

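The deposited values are log2 expression per probe set, which the authors made with RMA (background correction, quantile normalization and summary over probes), per the submitters' processing notes. The sources used here do not name the arrays that went into each normalization. Total RNA extracted with Trizol was amplified, biotin-labelled and hybridised to whole-transcript arrays, per the labels' protocols. Of 28944 probe sets, 21797 carried 1 gene symbol, 1613 several and 5534 none, and 21703 matched RefSeq by gene ID or accession, which changed 2 symbols. Where a gene had several probe sets (1001 genes) the one with the highest mean over the 12 liver and quadriceps arrays was used, leaving 19944 genes. The number of arrays, 3 per age, limits the precision, and the median SE of a difference was 0.10.

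The values were tested as deposited in R 4.3.3 by limma 3.58.1 (two-sided, lmFit and eBayes) on the 6 liver arrays, with Benjamini-Hochberg adjustment over all genes and a threshold of 0.05, and with an age by tissue term on 12 arrays for liver minus quadriceps. On simulated data with 100 genes changed by 1 and 100 by 2, the liver fit recovered 86 and 100 and called 12 unchanged genes, and the liver minus quadriceps fit recovered 88 and 99 and called 16. The simulated noise was independent between genes and held no shift with expression level. These counts therefore do not describe arrays that carry such a shift, as the liver arrays do. The replicate numbers are shared between groups. Same-numbered liver arrays of the ages correlated in their deviations at 0.045, -0.02 and 0.047, so the numbers were not taken as pairs. Alternatives were other normalizations, filters, probe set rules and priors, a joint fit, a replicate block and each array left out.

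The 53 gene lists and the members were chosen with earlier results of these data known. Named genes are those past the threshold, up to 6 members per list of smallest unadjusted p (any member of lists of 15 or fewer), and the 5 genes of smallest p per direction of liver minus quadriceps. A1bg, Cpa1, Ctrb1, Cyp2b13, Hsd3b5, Mup21, Sult3a1, the sex-linked genes and the genes of the closing observations were added after their values were seen. Members without a probe set of 1 symbol, and the heart and gastrocnemius arrays, were not analysed here. Promoter windows and microRNAs are RefSeq's.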

Additional observations from a re-analysis of the deposited data

Results flagged for a closer look

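Among genes whose age difference differed between liver and quadriceps in limma's test of the difference itself, 3 passed after adjustment. None passed with a block of age and number, and quantile normalization gave 3 calls, all on the higher side, so that the calls of Il1a and Sel1l3 were lost. Leaving out 1 liver array gave 2 to 1465 calls. Il1a had a liver minus quadriceps difference of -1.16 (SE 0.15, adjusted p = 0.0261), with -0.87 in liver and 0.28 in quadriceps, where its means were 3.77 and 4.06. Sel1l3 had -1.08 (SE 0.14, adjusted p = 0.0261 by limma), with -0.92 in liver and 0.16 in quadriceps. Mettl21c had 1.02 (SE 0.12, adjusted p = 0.0201 by limma), with 0.07 in liver, where it is dim, and -0.94 in quadriceps, so this difference lies in the muscle.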

How the results depend on the processing

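Of 65 liver calls, quantile normalization gave 8, centring on the median 2178, cyclic loess 99 (48 shared), leaving out dim genes 1766 of 10385 tested (45 shared), the trend and robust prior 2257 (64 shared) and the joint fit with quadriceps 3629 (63 shared). The mean of probe sets gave 63. Testing every probe set gave 0 in limma, with 7061 of 21797 at an unadjusted p under 0.05 and a smallest adjusted p of 0.0539. The replicate block gave 0 in limma, with 6582 at an unadjusted p under 0.05 and a smallest adjusted p of 0.061. Leaving out 1 array gave 0 to 5082. All 65 genes kept their direction with quantile normalization, centring, cyclic loess and the mean of probe sets. The other fits to genes could not turn it. They left the difference itself unchanged or left out 1 array from ages that did not overlap. For the test of every probe set, direction was not compared. Of 3 liver minus quadriceps calls, cyclic loess within tissue gave 6, leaving out dim genes 208, the trend and robust prior 160, and quantile normalization 3, all higher. The block of age and number gave 0 in limma, with 3452 at an unadjusted p under 0.05, and leaving out 1 liver array gave 2 to 1465, the highest without 24-month replicate 3 and 48 without 6-month replicate 1. Some list medians that exceeded in size the spread of the single 24-month arrays turned sign. Cytochromes P450 went to -0.02 with centring and -0.02 without dim genes, and p53 and senescence genes to -0.01 and -0.02. Centring gave -0.01 for immediate early genes and -0.03 for stellate cells. Quantile normalization and cyclic loess gave 0.03 and 0.04 for lipid droplet proteins, 0.01 and 0.02 for the cytosolic ribosome, and 0.01 and 0.00 for antioxidant genes. Without dim genes adipocytes gave -0.20 and neutrophils -0.34. The latter is the value of the only lower neutrophil gene, the sole member left, and not a median over the list. The cause of these shifts was not tested. Over the settings compared, list medians stayed within their spread in 501 cases, moved in 121 and turned in 14. The spread was the SD of the medians of the single 24-month arrays. A sign change counted as a turn only where the median exceeded that spread in size, so other sign changes lie among the 501 and 121. With cyclic loess these included fatty acid and triglyceride synthesis (-0.02 to 0.07), interleukin-1 genes (0.04 to -0.10) and sinusoidal endothelium (-0.09 to 0.04). The replicate block, which cannot change a difference in this balanced design, made up 53 of the 501. Genes past the threshold kept their call in 428 cases and lost it in 462. None turned sign, which most of these settings could not have changed. Probe sets close to background may understate differences.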

Other observations

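Several genes outside the lists differed by more than 1 without passing the test, and they were picked for their size. Lepr, the leptin receptor gene, stood at 7.42, 9.28 and 8.98 at 6 months and at 6.11, 6.40 and 7.64 at 24 months (difference -1.84, adjusted p = 0.0654 by limma). 6-month replicates 2 and 3, which were high for Saa1 and Saa2, were also the highest for Lepr. The pseudogene Serpina4-ps1 was at 10.98, 9.51 and 10.05 and then at 8.83, 8.41 and 7.98 (-1.77), and Phlda1 at 10.93, 10.01 and 10.28 and then 9.47, 8.88 and 9.02 (-1.28), both without overlap and with adjusted p = 0.0541 by limma. For Mid1, 6-month replicate 3 stood at 9.66 and the remaining liver arrays spanned 7.28 to 7.79.

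On the higher side Serpinb1a, a protease inhibitor gene, was at 7.27, 7.01 and 7.13 and then at 7.82, 8.14 and 9.13 (difference 1.23, adjusted p = 0.0552 by limma). Dmbt1, a mucosal scavenger receptor gene, was at 5.44, 5.57 and 5.61 and then at 5.86, 7.45 and 7.29 (1.33, 0.0621). Zbtb16, a transcription factor gene responsive to glucocorticoids, was at 8.0, 8.61 and 9.43 and then at 9.53, 9.60 and 9.99 (1.03, 0.0724). The antibody light chain segments Igkv4-55 and Igkv5-43 differed by 1.05 and 1.02, each without overlap. Immediate early genes had a median of 0.08 over 24 genes in liver and -0.22 in quadriceps, 5 erythroid markers one of 0.18 in liver (0.09 with cyclic loess), and 6 Nat8 genes one of -0.06 (0.00).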
